A study of Homo sapiens with 11 samples.

Results

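The genes described here act in homologous recombination and in the Fanconi anemia pathway, the routes by which a cell repairs broken DNA from a matching copy and unhooks strands that have been joined chemically. The members were 34 named genes, and they were taken up wherever the array has a probe set annotated to a single gene symbol. By that rule 26 of the 34 had a probe set of their own, exactly 1 each, out of 22395 genes measured in this way. RAD51D, RAD54B and ATM share their probe sets with other genes (RFFL, FSBP and NPAT), and BRCA2, RBBP8, XRCC2, FANCA and FANCD2 were not analysed here. All 26 genes passed the filter on low values, so every share below is over all of them.

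In homologous recombination the MRN complex, of which NBN and RAD50 are subunits, binds the ends of a break in both DNA strands, and nucleases such as EXO1 trim each end to a single strand. BRCA1 with its partner BARD1, joined by PALB2 and the helicase BRIP1, prepares that strand for pairing with the matching copy, and RAD51C, XRCC3, RAD51AP1 and RAD54L assist the pairing. BLM, a helicase mutated in Bloom syndrome, takes part in trimming and in taking apart the joined molecules, which the nuclease of MUS81 and EME1 can cut instead. The Fanconi core complex (here FANCB, FANCC, FANCE, FANCF, FANCG, FANCL and FANCM) places ubiquitin on FANCI and FANCD2 at blocked replication forks, with FANCL as the ligase. The kinase ATR, its activator TOPBP1 and the checkpoint kinases CHEK1 and CHEK2 halt the cell cycle meanwhile. Many of these genes are transcribed most in S phase.

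The cells were MDA-MB-468, an established human breast cancer line that lacks estrogen and progesterone receptors, grew out of a pleural effusion and has lost RB1. Over 24 h they received TNF, an inflammatory cytokine, at 40 ng/ml (3 arrays), apigenin, a plant flavone, at 40 µM (2 arrays), both agents at these doses (3 arrays), or neither, labelled as no treatment (3 arrays). The labels give HBSS as the medium of both agents and do not say whether the arrays of a group came from separate cultures, so p-values describe array-to-array spread alone, which could be technical. The question was what TNF, apigenin and their combination did to this repair machinery.

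Each gene is given as the deposited log2 value and, where stated, after quantile normalization, which gives every array the same distribution of values. The scales differed most on array apigenin 1, which stood apart: its median over 15865 genes tested was 3.89, against 4.08 to 4.32 on the other 10 arrays. Its values were also less spread, with an interquartile range of 2.40 against 2.63 to 2.91. The median of all probe sets, taken here as background, was 2.53. Epithelial markers had array medians of 7.60 to 8.38 over 7 genes, while ESR1 and PGR had group means of 1.47 to 2.52. Leukocyte markers had array medians of 1.56 to 1.96 over 5 genes (CD68 reached a group mean of 5.63) and fibroblast markers 1.94 to 2.28 over 4. The 3 endothelial markers had array medians of 3.97 to 4.30 with TNF, 3.46 to 3.47 in control, 2.18 to 2.69 with apigenin and 2.89 to 3.32 with both agents; their part in the results was not tested.

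Promoters are shown for the genes with the smallest adjusted p on either scale, because the cell cycle factors of the E2F family bind the starts of many repair genes. RefSeq (GRCh38.p14) gave 31 windows of 250 bases upstream of a start for 24 of the 26 genes. Each line reads 5′ to 3′ on the gene's strand and ends at the base before the start. Capitals mark an E2F match on either strand. The letters searched were TTCCCGC, the usual form of the site, with the related form TTGGCGC as a further match, and finally the form TTCGCGC. The windows are chr15:90717096-90717345 on the plus strand for BLM, chr1:46247438-46247687 on the plus strand for RAD54L (1 of 2 listed starts) and chrX:14873070-14873319 on the minus strand for FANCB.
BLM: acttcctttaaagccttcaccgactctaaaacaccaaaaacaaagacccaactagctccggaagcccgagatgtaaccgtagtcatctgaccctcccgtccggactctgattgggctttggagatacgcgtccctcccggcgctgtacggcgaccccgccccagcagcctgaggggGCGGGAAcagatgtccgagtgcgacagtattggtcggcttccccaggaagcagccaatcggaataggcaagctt
RAD54L: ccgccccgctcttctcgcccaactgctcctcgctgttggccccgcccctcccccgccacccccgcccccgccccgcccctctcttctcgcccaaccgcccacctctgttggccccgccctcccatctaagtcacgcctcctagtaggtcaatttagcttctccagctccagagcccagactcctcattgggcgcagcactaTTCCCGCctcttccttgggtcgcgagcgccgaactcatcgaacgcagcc
FANCB: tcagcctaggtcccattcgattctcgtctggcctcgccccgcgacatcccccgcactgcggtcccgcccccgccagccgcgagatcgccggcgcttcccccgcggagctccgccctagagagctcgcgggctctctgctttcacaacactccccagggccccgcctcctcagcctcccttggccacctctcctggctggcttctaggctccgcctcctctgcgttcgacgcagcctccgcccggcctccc
The capitals begin at position -74 in BLM and -49 in RAD54L, counted from the start, and the FANCB window holds none of these letters. Of the 31 windows 11 (35.5%) held them, against 9.32% of all promoter windows of this length and 52.4% of windows of the G1/S and DNA replication genes listed beside them. Some windows of the same gene overlap. Counted by gene, 9 of 24 held these letters, against 3056 of 27305 over all promoters and 20 of 32 G1/S and DNA replication genes. The windows of BRCA1, EME1, FANCC, FANCG, FANCL, RAD51AP1 and TOPBP1 held them as well. The letters CCAAT, which read ATTGG on the other strand and can there share TTGG with an E2F match, were in 15 windows (48.4%, against 32.0% of all). TTTGAA, the core of the element of mitotic genes named CHR, was in 2 (6.45%, against 13.3% of all and 44.2% for G2/M and mitosis genes), and an NF-kB match (GGGA, then 4 bases of any kind, then CC) in 8 (25.8%, against 22.6%). By gene, CCAAT was in 12 of 24, TTTGAA in 2 and the NF-kB match in 6, against 10102, 4383 and 7050 of 27305. These are matches of letters, counted on both strands.

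None of the 26 genes passed the test on the deposited scale in any comparison, and 1 passed after quantile normalization. BLM rose with TNF plus apigenin against TNF by 0.58 ± 0.13 on the log2 scale (SE, 1.50-fold, adjusted p = 0.0338) and against control by 0.58 ± 0.13 (1.49-fold, adjusted p = 0.0211). The comparisons share the arrays of TNF plus apigenin. The SE of a change lay between 0.15 and 0.32 over the 26 genes on the deposited scale and between 0.11 and 0.29 after quantile normalization. Across all genes the smallest change called on the deposited scale was 0.82 for TNF, 0.67 for apigenin and 0.64 for TNF plus apigenin against control. After quantile normalization these sizes were 0.57, 0.48 and 0.38.

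**Figure D1:**
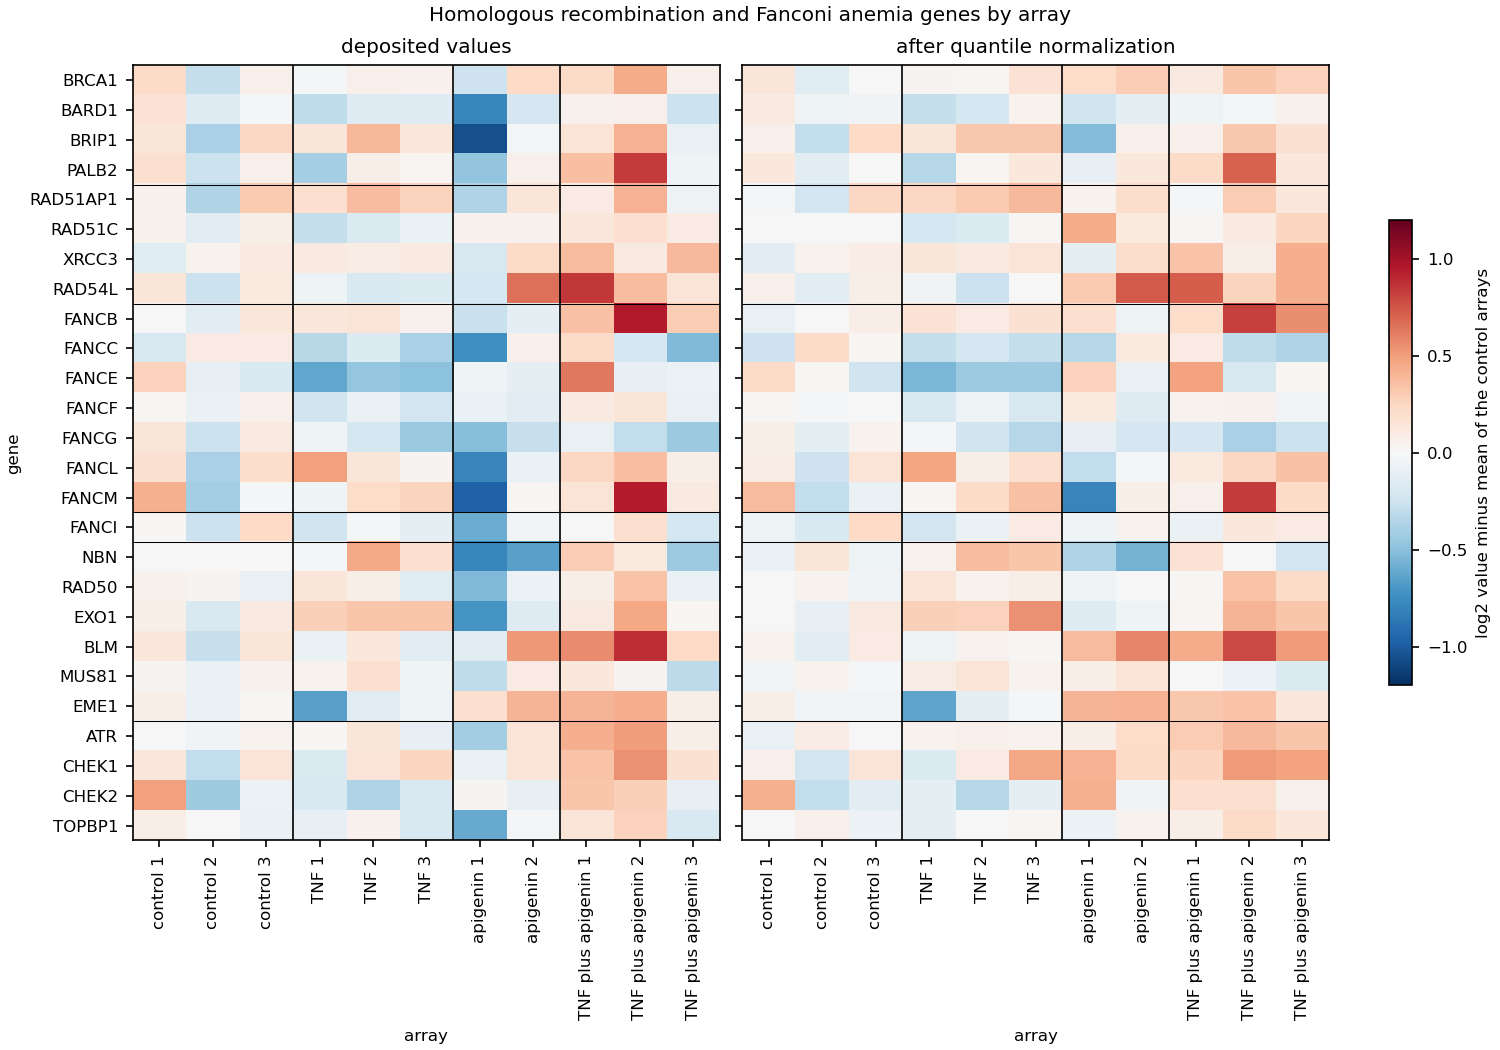
Colours show the log2 value of each of the 26 genes (rows, grouped by role) on each of 11 arrays (columns), minus the mean of the control arrays, as deposited (left) and after quantile normalization (right). The blue column of apigenin 1 in the left panel, where 16 of the 26 genes had their lowest value of all arrays, is mostly gone in the right panel, where 4 did.

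The array that stood apart gave low deposited values for most of these genes. On apigenin 1 the median of the 26 genes was 4.97, against 5.34 on apigenin 2 and 5.50, 5.35 and 5.48 on control 1, 2 and 3. It gave 22 of the genes a lower value than apigenin 2 did, as it did for 77.1% of all genes tested. For 16 of the 26 it held the lowest value of all 11 arrays, a larger share than the 39.1% of all genes. After quantile normalization the medians of the 26 genes were 5.36 on apigenin 1 and 5.34 on apigenin 2. The arrays of TNF gave medians of 5.44, 5.55 and 5.49, and those of TNF plus apigenin 5.72, 5.85 and 5.26. TNF plus apigenin 3, whose median over all genes was the next lowest at 4.08, gave the lowest value of its group for 24 of the 26. After quantile normalization the medians were 5.53, 5.68 and 5.42 with TNF plus apigenin, 5.43, 5.45 and 5.56 with TNF, and 5.36, 5.43 and 5.36 in control.

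**Figure D2:**
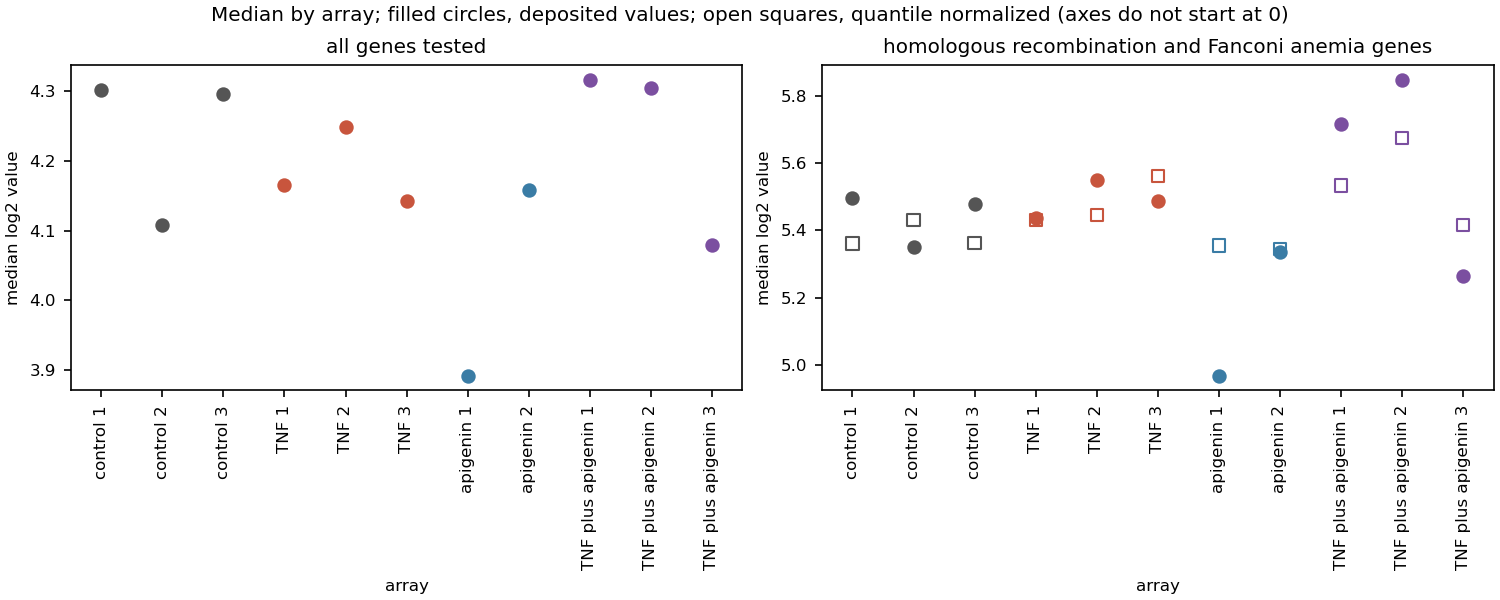
Median log2 value on each array over all 15865 genes tested (left) and over the 26 repair genes (right), with filled circles for deposited and open squares for quantile-normalized values. Apigenin 1 is lowest in both panels at 3.89 and 4.97, and its open square at 5.36 lies among the others.

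TNF alone moved no gene of the set past the test. Of the 26 genes limma called 0 on either scale, where 0.7% of all genes were called on the deposited scale and 1.17% after quantile normalization. The median change was -0.00 (all genes -0.04), and 0.02 after quantile normalization (all genes -0.01). Of the 26, 13 lay above 0 on either scale, against 41.6% and 49.0% of all genes. At an unadjusted p under 0.05 there was 1 lower gene (4.59% of all genes) and 0 higher (2.82%), and after quantile normalization 1 of each (5.31% and 5.19%).

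That lower gene was FANCE, which bridges the Fanconi core complex to FANCD2. It read 4.47, 4.09 and 4.01 in control and 3.57, 3.72 and 3.70 with TNF, a difference of -0.53 ± 0.21 (adjusted p = 0.51) that was -0.47 ± 0.19 after quantile normalization (adjusted p = 0.375). The TNF arrays all lay below the control arrays. EXO1, the nuclease that resects ends, had the highest change. It read 7.08, 6.82 and 7.11 in control and 7.29, 7.34 and 7.33 with TNF, a difference of 0.32 ± 0.19 (adjusted p = 0.8), and 0.37 ± 0.14 after quantile normalization (adjusted p = 0.338). Here too the groups did not overlap, as in these 2 genes of the 26 on the deposited scale, 1 in each direction (4.61% of all genes higher, 8.72% lower). After quantile normalization 5 genes lay wholly above control and 2 below (8.72% and 7.84% of all genes).

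Apigenin alone gave no call either. On the deposited scale limma called 0 of 26, with 3.66% of all genes called, and after quantile normalization 0 with 3.75%. The median change was -0.16, beside -0.18 over all genes, and 0.03 after quantile normalization, beside -0.03. Over the 9439 genes with 2 or more arrays at 4 or above, the deposited median was -0.26. Only 6 of the 26 lay above 0 as deposited (27.7% of all genes), and 14 after quantile normalization (46.2%). At an unadjusted p under 0.05, 2 were lower (17.5% of all genes) and 0 higher (2.02%), and after quantile normalization 1 was lower (12.2%) and 3 higher (7.37%). The groups did not overlap for 1 higher and 3 lower genes (4.69% and 26.9% of all genes), and after quantile normalization for 7 higher and 2 lower (14.7% and 19.8%).

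By role, as deposited, all 4 genes of the BRCA1 complexes lay below control, from -0.54 (BRIP1) to 0.00, as did all 7 core complex genes, from -0.47 (FANCM) to -0.09 (FANCE). After quantile normalization these ranges were -0.23 to 0.26 and -0.36 to 0.09. NBN, the MRN subunit that recruits ATM, had the lowest change. It read 5.51, 5.52 and 5.51 in control and 4.73 and 4.87 with apigenin, a difference of -0.72 ± 0.22 (95% interval -1.19 to -0.24, adjusted p = 0.0906). After quantile normalization it read 5.38, 5.60 and 5.40 in control and 5.09 and 4.89 with apigenin, a difference of -0.47 ± 0.16 (adjusted p = 0.141). The apigenin arrays lay below the control arrays on both scales. Leaving out TNF plus apigenin 3, which is in neither group but in the shared estimate of the spread, NBN passed (adjusted p = 0.0492, same difference), and without apigenin 2 BRIP1 did, at -1.06 (adjusted p = 0.0403). That last fit leaves apigenin 1 alone in its group, and assumes that it varies as the arrays of the other groups do.

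EME1, the partner of the MUS81 nuclease, had the highest change with apigenin. It read 3.56, 3.41 and 3.51 in control and 3.68 and 3.90 with apigenin, a difference of 0.30 ± 0.21 (adjusted p = 0.466), and 0.41 ± 0.17 after quantile normalization (adjusted p = 0.221). The groups did not overlap. BARD1, the partner that makes BRCA1 a ubiquitin ligase, read 6.88, 6.55 and 6.69 in control and 5.93 and 6.51 with apigenin, or -0.49 ± 0.21 as deposited (adjusted p = 0.212). After quantile normalization the groups lay closer, at 6.73, 6.56 and 6.58 in control and 6.39 and 6.51 with apigenin. RAD54L, a motor protein that helps the strand invade the matching copy, went the other way after quantile normalization, by 0.52 ± 0.18 (adjusted p = 0.13). Its deposited difference was 0.22 ± 0.26.

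**Figure D3:**
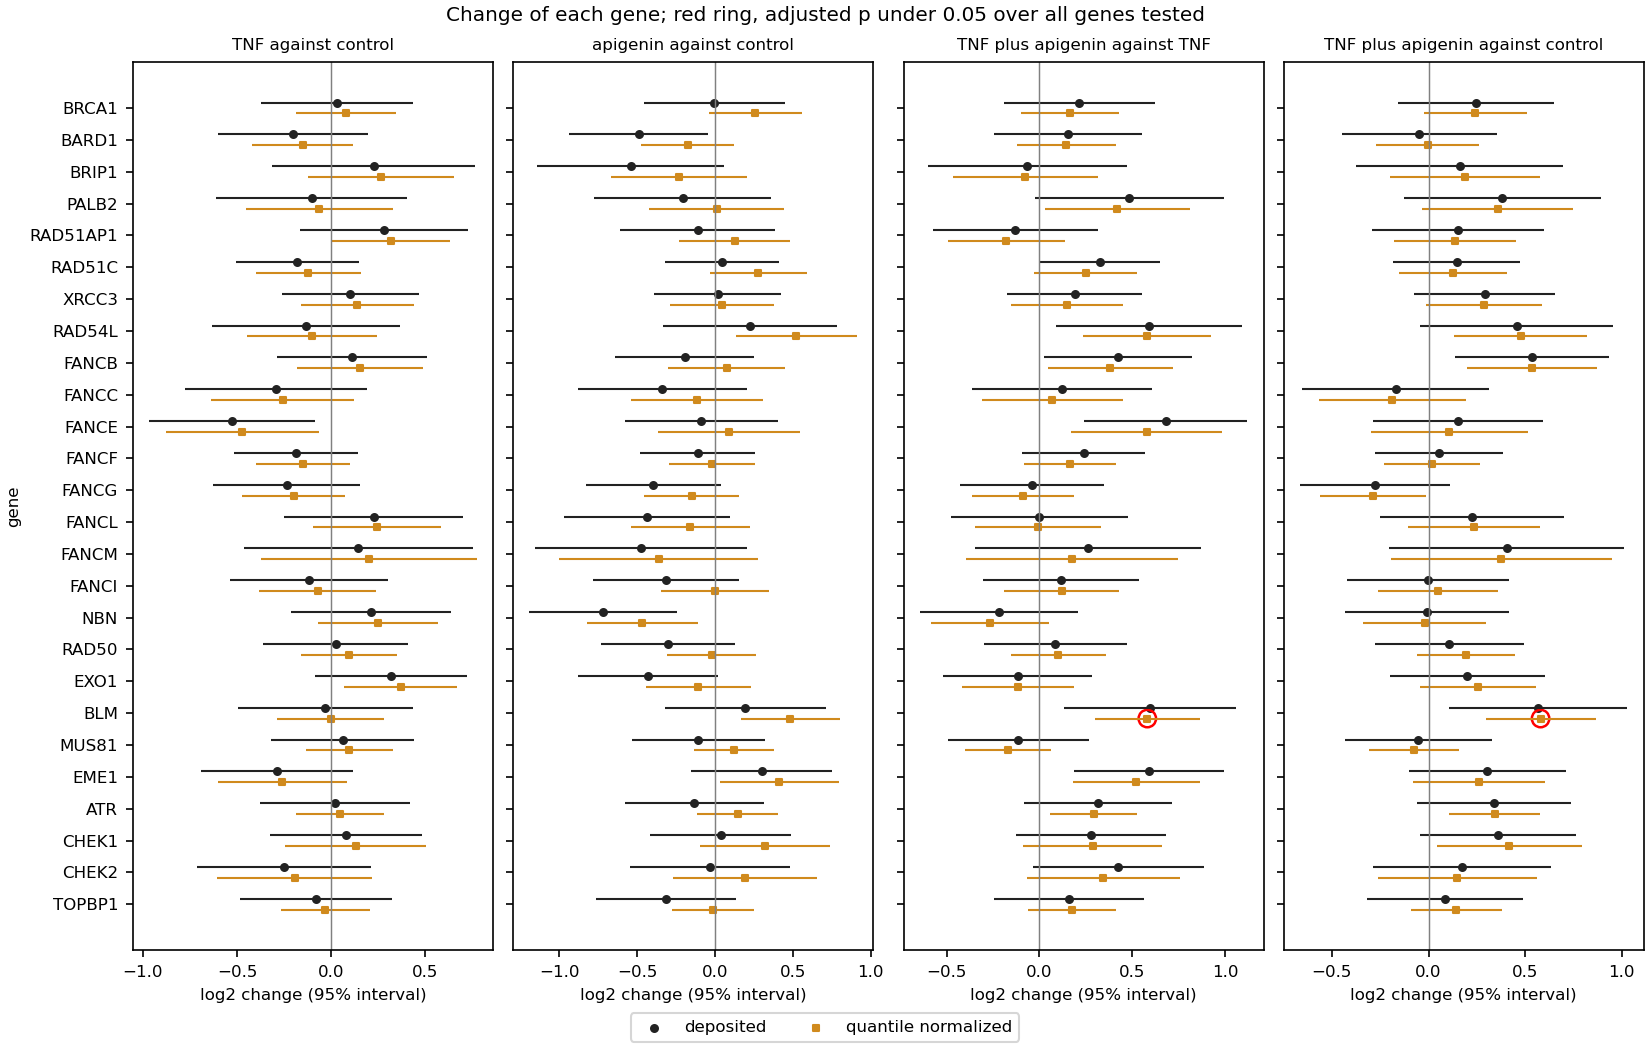
Log2 change of each of the 26 genes in 4 comparisons with its 95% interval, black for deposited and orange for quantile-normalized values, with red rings at an adjusted p under 0.05 over all genes. Both rings belong to BLM after quantile normalization, and under apigenin alone most black points lie left of the orange ones.

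Adding apigenin to TNF gave the call of BLM. On the deposited scale limma called 0 of 26, with 1.07% of all genes called, and after quantile normalization 1, with 3.21%. The median change was 0.20, beside 0.02 over all genes, and 0.17 after quantile normalization, beside -0.02. Of the 26 genes 20 lay above 0 (52.4% of all genes), and 19 after quantile normalization (47.3%). At an unadjusted p under 0.05, 5 were higher and 0 lower (5.93% and 5.2% of all genes), and after quantile normalization 7 and 0 (7.54% and 9.25%). The 5 were RAD54L, FANCB, FANCE, BLM and EME1. PALB2 and ATR joined them after quantile normalization. The groups did not overlap for 7 higher and 0 lower genes (8.62% and 7.04% of all), and after quantile normalization for 10 and 1 (10.9% and 13.7%).

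BLM read 6.03, 5.64 and 6.06 in control, 5.83, 6.03 and 5.78 with TNF, 5.77 and 6.43 with apigenin, and 6.48, 6.80 and 6.15 with both agents. The arrays with both agents lay above those of control and of TNF, while the apigenin arrays straddled them. The deposited difference from TNF was 0.60 ± 0.22 (95% interval 0.13 to 1.06, adjusted p = 0.289). After quantile normalization BLM read 5.89, 5.71 and 5.95 in control, 5.79, 5.89 and 5.86 with TNF, 6.24 and 6.44 with apigenin, and 6.29, 6.64 and 6.36 with both agents. On that scale all 5 arrays with apigenin lay above all 6 without it. Apigenin alone differed from control there by 0.48 ± 0.15 (adjusted p = 0.0928), and the difference between both agents and apigenin alone was 0.10 ± 0.15 (95% interval -0.22 to 0.41). With each array only shifted to a common median, the change of BLM was 0.55 against TNF (adjusted p = 0.0894) and 0.57 against control (adjusted p = 0.0507), so its calls rest on quantile normalization. Over all settings tried, its adjusted p ranged from 0.0338 to 0.656 against TNF and from 0.0211 to 0.556 against control.

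Of the 26 genes 4 had every array with apigenin above every array without after quantile normalization, a pattern looked for after the values of BLM were seen. They were BLM, RAD54L, EME1 and RAD51C, and 2.85% of all genes did so. On the deposited scale 0 of 26 did, with 0.681% of all genes. None of the 26 lay wholly below on either scale, where 4.39% of all genes did after quantile normalization and 2.82% as deposited. RAD54L read 6.33 to 6.80 with apigenin against 5.81 to 6.14 without, and EME1 3.60 to 3.89 against 2.84 to 3.55. For RAD51C, which acts before strand pairing, the ranges met at 4.58.

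FANCE had the highest change when apigenin was added to TNF. It read 4.82, 4.09 and 4.12 with both agents against 3.57, 3.72 and 3.70 with TNF, a difference of 0.68 ± 0.21 (95% interval 0.24 to 1.12, adjusted p = 0.171), and 0.58 ± 0.19 after quantile normalization (adjusted p = 0.127). The mean with both agents differed from that of control by 0.15 ± 0.21 (adjusted p = 0.787), and TNF plus apigenin 1 lay above all control arrays. This comparison and TNF against control share the TNF arrays, where FANCE was low. NBN had the lowest change, -0.22 ± 0.20 (adjusted p = 0.785), with 5.50, 5.97 and 5.71 with TNF and 5.81, 5.63 and 5.08 with both agents.

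**Figure D4:**
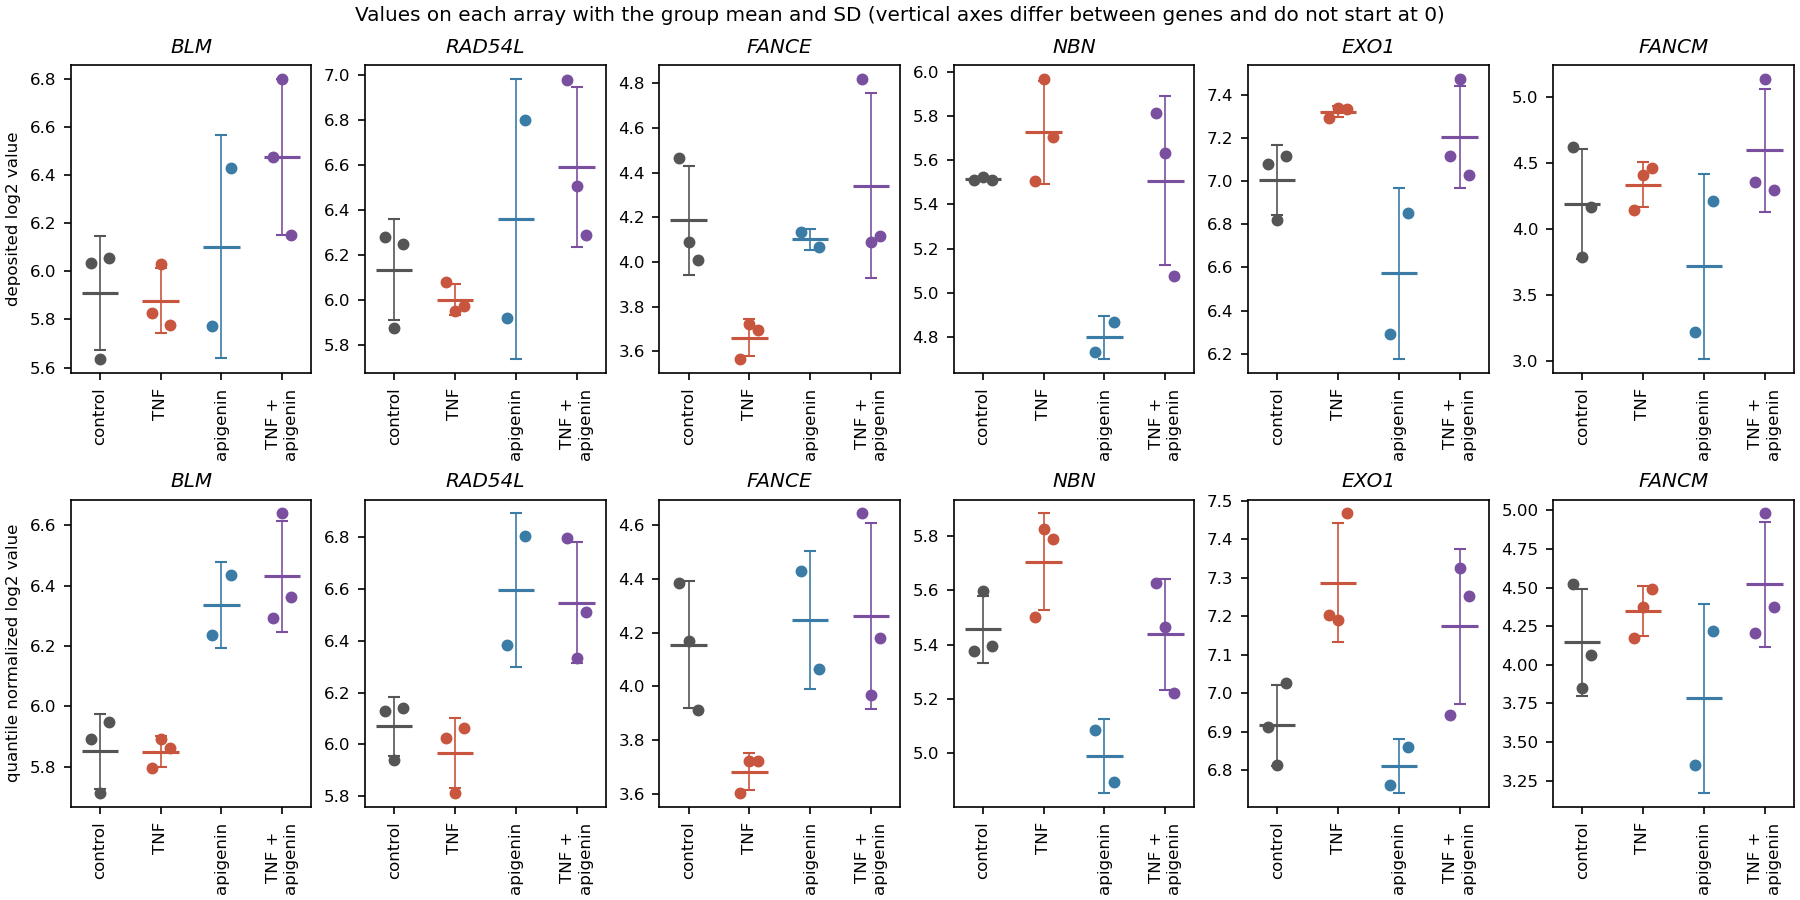
Log2 values of 6 genes on each array (points) with the group mean (bar) and SD (whisker, n = 3, or 2 for apigenin), as deposited in the upper row and after quantile normalization in the lower row. In the lower BLM panel the apigenin arrays at 6.24 and 6.44 sit with the arrays of both agents, and in the upper FANCM panel apigenin 1 at 3.22 lies far below the rest.

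With TNF plus apigenin against control, limma called 0 of 26 as deposited, with 2.82% of all genes called, and BLM after quantile normalization, with 7.77%. The median change was 0.17, beside -0.02 over all genes, and 0.19 after quantile normalization, beside -0.02. Of the 26 genes 20 lay above 0 (46.3% of all genes), and 21 after quantile normalization (47.4%). At an unadjusted p under 0.05, 2 were higher and 0 lower (7.15% and 8.79% of all genes), and after quantile normalization 5 and 1 (10.9% and 11.7%). The groups did not overlap for 6 higher and 0 lower genes (8.68% and 11.4%), and after quantile normalization for 9 and 1 (14.3% and 15.8%). The mean was highest in the group with both agents for 17 of the 26 genes (30.9% of all genes), and for 12 after quantile normalization (23.5%).

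FANCB, the X-linked core complex gene, had the smallest adjusted p here on the deposited scale. It read 5.48, 5.36 and 5.62 in control, 5.62, 5.64 and 5.54 with TNF, 5.22 and 5.37 with apigenin, and 5.84, 6.44 and 5.80 with both agents. The group with both agents lay above all others, by 0.54 ± 0.19 against control (adjusted p = 0.155), and by 0.53 ± 0.15 after quantile normalization (adjusted p = 0.0576). It passed with array weights alone, at 0.58 (adjusted p = 0.0477). ATR differed from control by 0.34 ± 0.19 (adjusted p = 0.415), and by 0.34 ± 0.11 after quantile normalization (adjusted p = 0.0765). FANCG, a scaffold of the core complex, had the lowest change at -0.28, with 5.46, 5.05 and 5.41 in control and 5.22, 5.01 and 4.86 with both agents. It lay wholly below control only after quantile normalization.

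With both agents against apigenin alone no gene passed, and apigenin 1 enters every one of these differences. All 26 genes lay above 0 as deposited (70.9% of all genes), and 18 after quantile normalization (52.7%). The median change was 0.32, beside 0.16 over all genes, and 0.10 after quantile normalization, beside 0.02. Limma called 0 on either scale (0.574% and 0.605% of all genes called). At an unadjusted p under 0.05, 8 were higher and 0 lower (14.1% and 1.65% of all genes), and after quantile normalization 5 and 0 (8.58% and 6.33%). The groups did not overlap for 7 higher and 0 lower genes (20.9% and 4.79%), and after quantile normalization for 9 and 2 (18.1% and 14.8%).

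FANCM, the translocase that anchors the core complex to DNA, had the highest change there. It read 3.22 and 4.21 with apigenin and 4.36, 5.13 and 4.29 with both agents, a difference of 0.88 ± 0.32 (adjusted p = 0.209). The 2 apigenin arrays lay further apart than the groups did. Without apigenin 1 the difference was 0.38, and without apigenin 2 it was 1.38 (adjusted p = 0.0497). EME1 had the lowest change, 0.00 ± 0.21, with 3.68 and 3.90 on the apigenin arrays and 3.91, 3.93 and 3.56 with both agents, and -0.15 ± 0.17 after quantile normalization. Without apigenin 2, BRIP1 (1.22), EXO1 (0.91) and FANCM passed, but those calls set the arrays with both agents against apigenin 1 alone, the array that stood apart, with a spread taken from the other groups.

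The interaction, the effect of TNF with apigenin minus its effect without, was not called for any gene of the set. On the deposited scale 0.0252% of all genes were called and after quantile normalization 0.0441%. Its median was 0.41, beside 0.23 over all genes, and 0.13 after quantile normalization, beside 0.02. Of the 26 genes 24 lay above 0 (76.1% of all genes), and 20 after quantile normalization (53.4%). At an unadjusted p under 0.05, 3 were higher and 0 lower as deposited (7.14% and 1.02% of all genes), namely BARD1, FANCB and FANCE, and after quantile normalization 0 were (4.03% higher and 2.81% lower among all genes). FANCE had the highest value, 0.77 ± 0.31 (adjusted p = 0.581), and 0.49 ± 0.28 after quantile normalization. RAD51AP1, a stimulator of strand pairing, had the lowest at -0.02. It read 5.14, 4.73 and 5.40 in control, 5.30, 5.46 and 5.36 with TNF, 4.73 and 5.24 with apigenin, and 5.19, 5.50 and 5.03 with both agents, and each group overlapped at least one other.

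BRCA1 was not called in any comparison. It read 5.62, 5.10 and 5.45 in control, 5.37, 5.45 and 5.43 with TNF, 5.14 and 5.62 with apigenin, and 5.62, 5.83 and 5.45 with both agents, and the 4 groups overlapped. Its changes from control were 0.03 for TNF, -0.00 for apigenin (95% interval -0.46 to 0.45) and 0.25 for both agents (95% interval -0.16 to 0.65, adjusted p = 0.589). After quantile normalization the change with apigenin was 0.26 ± 0.14 (adjusted p = 0.321), with apigenin arrays at 5.55 and 5.62 above control arrays at 5.18 to 5.47. Of its partners, BRIP1 ranged from 5.83 on apigenin 1 to 7.30 on TNF plus apigenin 2 and PALB2 from 4.54 to 5.86 on these arrays.

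The other genes are given by their range over the 11 arrays, as deposited. Of the genes that assist strand pairing, XRCC3 lay between 2.77 and 3.34, close to the background of 2.53, and RAD51C between 4.34 and 4.82, with the identical value 4.67 on control 1 and both apigenin arrays. Among the core complex genes FANCC ranged from 4.51 to 5.47, FANCF, an adaptor of the complex, from 3.41 to 3.80, and FANCL from 5.38 to 6.66, while FANCI ranged from 6.65 to 7.49. RAD50 lay between 7.59 and 8.46, and MUS81 between 4.58 and 5.09. TOPBP1 ranged from 6.77 to 7.66, CHEK1, the kinase that ATR activates, from 7.03 to 7.88, and CHEK2, the one that ATM activates, from 4.13 to 5.04. CHEK1 differed from control by 0.36 with both agents as deposited and by 0.42 ± 0.19 after quantile normalization (adjusted p = 0.17).

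Beyond these genes, 61 of 70 others of the same pathways were tested, and 1 passed on both scales. It was called lower with apigenin alone, as were 3.44% of all genes as deposited and 2.83% after quantile normalization. WRN, the helicase mutated in Werner syndrome, read 5.58, 5.43 and 5.43 in control and 4.41 and 4.71 with apigenin, and fell by 0.92 (SE 0.21, adjusted p = 0.0254), and by 0.68 after quantile normalization (adjusted p = 0.0235). The limma call was lost in 7 of the other settings tried. Among them were array weights (adjusted p = 0.0849) and the 2 groups fitted alone (adjusted p = 0.085). Leaving out control 1 (adjusted p = 0.101) or control 3 (adjusted p = 0.0726) lost it too. So did leaving out apigenin 1, where the change was -0.77 and apigenin 2 stood alone in its group. With TNF plus apigenin WRN read 5.43, 5.75 and 5.07, overlapping control. In the other 4 group comparisons 0 of the 61 passed as deposited.

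After quantile normalization a few more of the 61 passed where both agents were present. Against TNF 2 rose and 1 fell (1.1% and 2.12% of all genes). Against control 3 rose and 0 fell (3.4% and 4.37% of all genes). Against TNF, RNF168, a ubiquitin ligase of break signalling, rose by 0.53 (adjusted p = 0.0399), RPA1, the large subunit of the protein that coats single strands, by 0.50 (adjusted p = 0.0338), and WDR48, a cofactor of the enzyme that removes ubiquitin from FANCD2, fell by 0.71 (adjusted p = 0.0205). Against control, RMI1, a subunit of the complex in which BLM works, rose by 0.67 (adjusted p = 0.0471), PSMC3IP, a meiotic recombination factor, by 0.47 (adjusted p = 0.0321) and RPA1 by 0.45 (adjusted p = 0.0318). RPA1 read 7.63, 7.51 and 7.63 in control, 7.58, 7.52 and 7.39 with TNF, 7.34 and 7.84 with apigenin, and 7.94, 8.10 and 7.82 with both agents on the deposited scale. The arrays with both agents lay above those of control and TNF, and apigenin 2 lay above the lowest of them. There its adjusted p was 0.306 against TNF and 0.316 against control.

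Of the cell cycle genes listed beside the repair genes, those of mitosis passed the test in part. Of 41 G2/M and mitosis genes tested, 13 fell with apigenin alone, where 3.44% of all genes did, and the median of the 41 was -0.69, beside -0.18 over all genes. After quantile normalization 11 fell (2.83% of all genes), and the median was -0.38, beside -0.03. With both agents against TNF 3 fell (0.681% of all genes), and 11 after quantile normalization (2.12%). Against control 7 fell (1.78%), and 17 after quantile normalization (4.37%). As deposited, the changes of the 41 with apigenin alone ran from -1.66 to 0.15. KIF20A, a kinesin of the dividing midzone, had the lowest. It read 7.97, 7.70 and 7.62 in control, 6.33 and 5.87 with apigenin and 6.30, 6.28 and 5.67 with both agents. Of 37 G1/S and DNA replication genes limma called 0 as deposited. At an unadjusted p under 0.05 with both agents against TNF, 9 were higher and 0 lower (5.93% and 5.2% of all genes). After quantile normalization RFC5 rose with apigenin (0.92% of all genes rose), and CDC6, FEN1, RFC4 and RFC5 rose with both agents against TNF (1.1%). Against control CCNE1, FEN1, MCM6 and RFC4 rose (3.4%) and UHRF1 fell (4.37%). The medians of this list with both agents were 0.20 against TNF and 0.15 against control after quantile normalization, beside 0.17 and 0.19 for the 26 repair genes. Whether shares of cells in each phase differed was not tested, and fewer cells with a transcript and less of it per cell cannot be told apart in these samples.

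**Figure D5:**
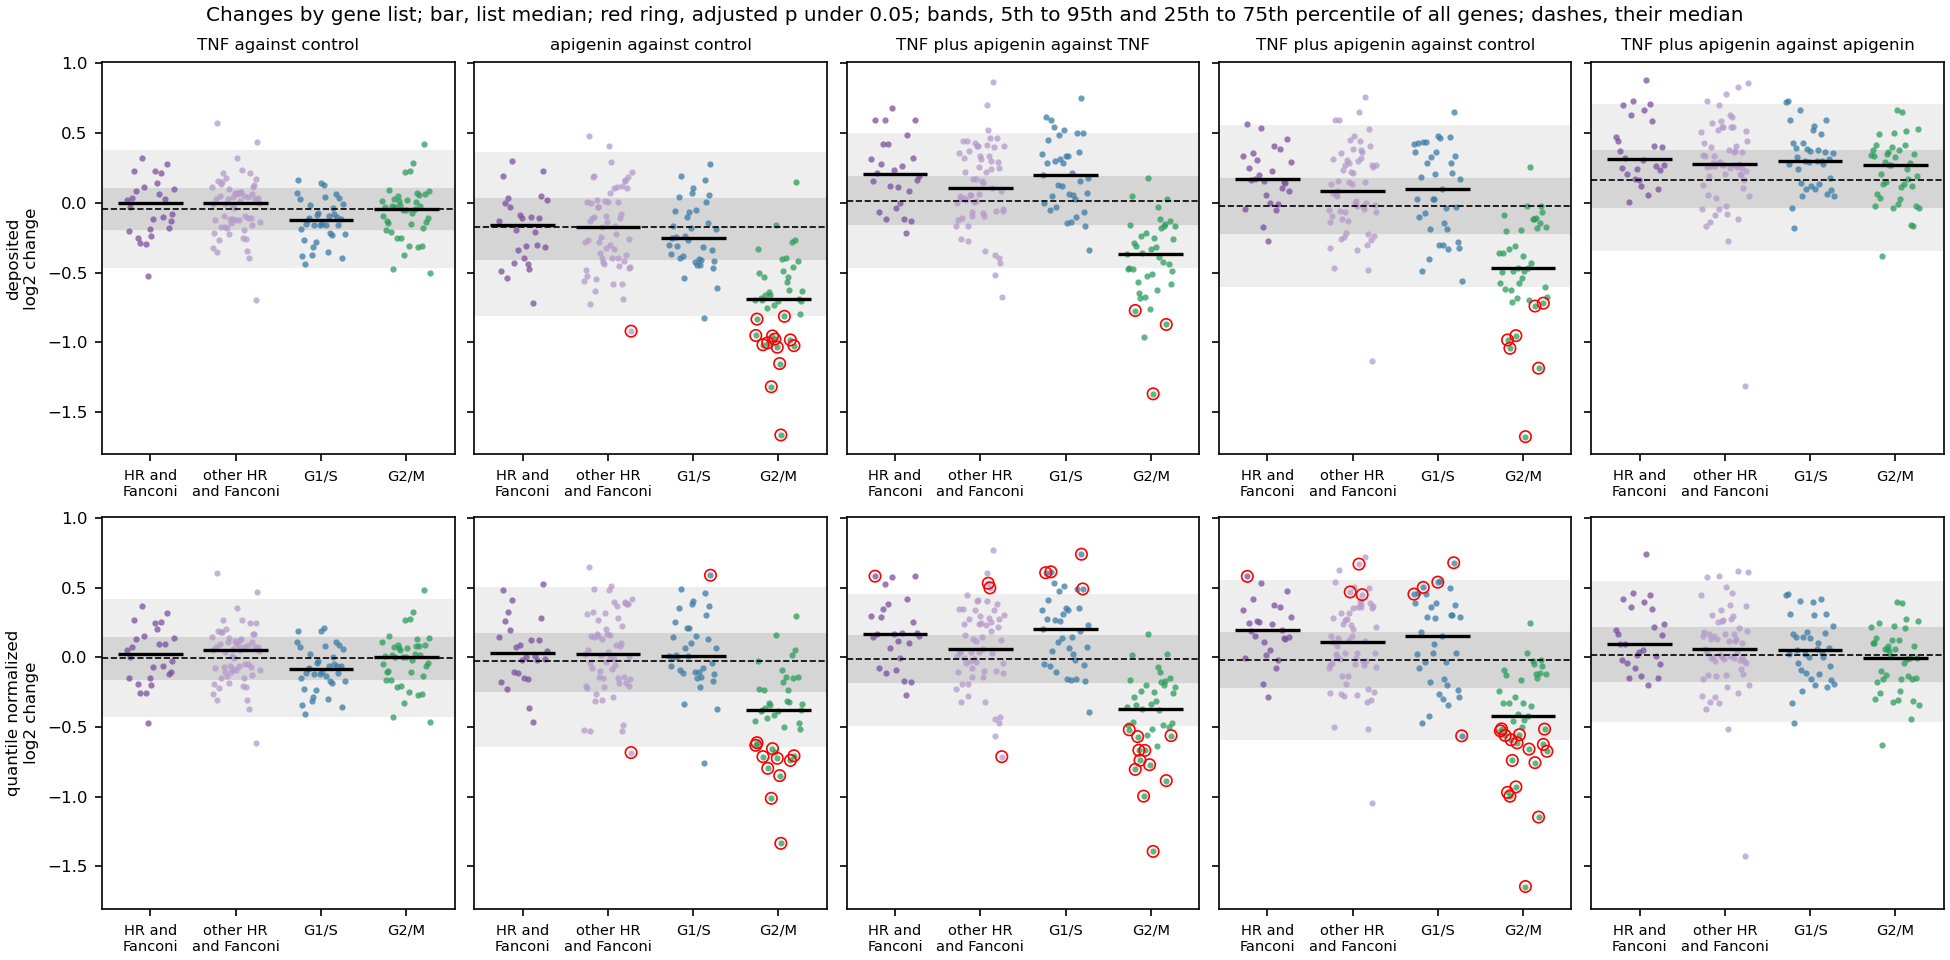
Log2 changes of single genes (points) in 4 lists for 5 comparisons, as deposited (upper row) and after quantile normalization (lower row), with list medians as bars, red rings at an adjusted p under 0.05, and grey bands for the 5th to 95th and 25th to 75th percentile of all genes. Under apigenin the G2/M points sit low with a median of -0.69 as deposited, while the repair genes, with a median of -0.16, sit at the dashed median of all genes.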

How the data were processed

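The arrays were GeneChip Human Gene 2.1 ST, hybridised with labelled total RNA. Per the submitters' processing notes, the authors used Affymetrix Expression Console for the deposited log2 values of 53617 probe sets. Not given in the sources used here are its version, the summarisation and normalization, and the build. That the logarithm has base 2 was inferred from values of 0.38 to 12.31, and detection calls were not used. The number of arrays limits the precision.

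Of the probe sets, 23871 had 1 gene symbol, 1842 several and 27904 none, and 22572 of those with 1 symbol matched RefSeq, which updated 90 symbols. The probe set with the highest mean stood for the 632 genes with several, and genes with 2 or more arrays at 2.53 or above were tested. Quantile normalization was run over all probe sets. A limma model with 4 group means was fitted to all 11 arrays (limma 3.58.1 in R 4.3.3, lmFit and eBayes, 7 residual degrees of freedom). Two-sided p-values were adjusted by Benjamini-Hochberg over 15865 genes, with calls under 0.05. The model was tested on simulated data. Errors after log2 changes are SE. The 5 comparisons share arrays, so no correlation between them was computed.

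The members and lists were chosen with earlier results of these data known. Of the 26 genes, array values of the groups compared are given for those called on either scale, for those with the highest and lowest deposited change in each comparison, and for BRCA1; genes called in the other repair and G1/S lists are named; BARD1, FANCB, RAD54L, ATR and CHEK1 were added after their values were seen. Alternatives were other scalings, filters, array weights, moderation, groups, probe set means, a replicate block and leaving out arrays.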

Additional observations from a re-analysis of the deposited data

How the results depend on the processing

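With 2 or 3 arrays a group, only changes well above the SE could be called, and a missing call does not show an unchanged gene. The count of called repair genes stayed at 0 for TNF against control under 22 other settings and for the interaction under the 21 that gave it, which leave out the fit of single pairs of groups. It was 1 for TNF plus apigenin against TNF with quantile normalization and with quantile normalization without apigenin 1, an alternative chosen after seeing the data, and 1 for TNF plus apigenin against control with those and with array weights (FANCB). Leaving out 1 array at a time gave 0 to 1 call for apigenin against control, 0 to 3 for TNF plus apigenin against apigenin, and 0 in the others. The median change of the 26 genes with apigenin against control was 0.048 after a median shift of each array and 0.066 after quantile normalization without apigenin 1, and ran from -0.39 (without apigenin 2) to 0.0005 over single arrays left out. For TNF plus apigenin against apigenin it was 0.10 after quantile normalization, 0.11 after the median shift, and 0.17 to 0.62 over single arrays left out. For the interaction it was 0.13, 0.16 and, after quantile normalization without apigenin 1, 0.088, and 0.16 to 0.65 over single arrays left out. The cause was not tested. The change of EME1 for TNF plus apigenin against apigenin reversed to -0.15 after quantile normalization, -0.20 after the median shift, -0.11 without control 2 and apigenin 1, and -0.16 after quantile normalization without apigenin 1, and lay between -0.11 and 0.12 over single arrays left out. The interaction of RAD51AP1 reversed to 0.19 with array weights and lay between -0.28 and 0.23 over single arrays left out. Deviations from the group mean correlated above 0.1 in 4 of 15 same-numbered pairs of arrays from different groups (r from -0.24 to 0.28). Pairs of arrays with different numbers gave r from -0.39 to 0.19. With 2 or 3 arrays a group, these values cannot tell whether the numbers pair the samples. With the number as a replicate block 0 of 26 genes were called in each of the 6 comparisons, and the median change was -0.20 for apigenin against control and 0.20 for TNF plus apigenin against TNF.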

Other observations

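Other repair routes listed beside these genes gave calls after quantile normalization and none as deposited. On the quantile-normalized scale 1.1% of all genes were called higher with TNF plus apigenin against TNF and 3.4% against control. With apigenin alone 0.92% were. Of 5 mismatch repair genes tested, MSH6 and PMS1, subunits that recognise and process mispaired bases, rose with TNF plus apigenin against TNF by 0.57 (adjusted p = 0.0279) and 0.59 (adjusted p = 0.0342) by limma. Against control they rose by 0.62 (adjusted p = 0.0116) and 0.61 (adjusted p = 0.0181), and MLH3 by 0.65 (adjusted p = 0.0265). As deposited MSH6 read 7.10, 6.98 and 6.90 in control, 6.95, 7.10 and 6.92 with TNF, 6.62 and 7.40 with apigenin, and 7.74, 7.60 and 7.31 with both agents. PMS2 rose with apigenin alone by 0.67 (adjusted p = 0.0225). On the deposited scale limma called 0 of the 5, and at an unadjusted p under 0.05 with TNF plus apigenin against TNF 3 lay higher (5.93% of all genes) and 1, MSH3, lower (-0.49, 5.2% of all genes). The median of this list there was 0.56, beside 0.20 for the 26 genes of homologous recombination and the Fanconi pathway.

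Of 9 end joining genes LIG4, the ligase of that route, rose with TNF plus apigenin against control by 0.71 after quantile normalization (adjusted p = 0.0114). As deposited LIG4 read 4.99, 5.03 and 5.10 in control and, wholly above these, 5.46, 5.44 and 5.56 with TNF alone. It read 4.58 and 5.14 with apigenin and 5.83, 6.07 and 5.42 with both agents. Of 17 excision repair genes XPA, a damage verification factor, rose with both agents after quantile normalization. The rise was 0.52 against control (adjusted p = 0.0226) and 0.53 against TNF (adjusted p = 0.0332). The shares of all genes called higher were 3.4% against control and 1.1% against TNF.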
